A study of Mus musculus with 22 samples.

Results

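The core clock loop is described here through 8 genes chosen by their symbols: the activators Arntl (the gene of BMAL1), Clock and Npas2, and the repressors Per1, Per2, Per3, Cry1 and Cry2. They are 8 of the 41456 genes in the table, and all 8 passed the filter on low counts that left 21346 genes for testing. RNA came from the hypothalamus of C57BL/6J mice of 2 genotypes. The PWScrm+/p− mice, called mutant here, are described by the submitters as having lost the Snord116 small nucleolar RNA genes of the paternal allele, and the PWScrm+/p+ mice are the controls. Sampling was at ZT0, when lights come on, at ZT6, or at ZT6 following 6 h of sleep deprivation, and the labels name no other allele or agent. The labels give no sex or age, and no explicit statement that each library is a separate mouse, so p-values measure the spread between these libraries. Controls gave 3 ZT0, 4 ZT6 and 4 sleep-deprived libraries, and mutants gave the same numbers.

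Tests rest on 17 of the 22 libraries, with 14609454 to 46965594 counts each: all 11 control libraries, mutant ZT6 replicates 1 and 4, and the 4 mutant libraries after sleep deprivation. Counts of the 17 Snord116 genes summed to 0 in all 11 mutant libraries and to 0 to 1561 in the controls, of which 3 were also at 0, so this check did not separate every library; these genes are near-identical copies that share reads. The host transcript Snhg14 was at 174 to 2039.5 CPM (counts per 1000000) in controls and 198.5 to 372.3 CPM in the 6 mutant libraries tested. The 3 mutant ZT0 libraries and mutant ZT6 replicate 3 were left out because 8 neuron markers summed to only 3.451 to 23.37 CPM there, against 2379 to 3926 CPM in the 17, while 6 meninges and fibroblast markers summed to 7779 to 23030 CPM against 86.57 to 355.4 CPM. Mutant ZT6 replicate 2 held 7348 counts and was left out too. Mutant ZT0 therefore has no library in the tests, and mutant ZT6 has 2. In bulk tissue, fewer cells of a type and less RNA per cell cannot be told apart.

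In the clock of mammalian cells, BMAL1 pairs with CLOCK or its paralog NPAS2 and binds E-box sequences to drive the Per and Cry genes. PER and CRY proteins then enter the nucleus and repress that pair, which closes a daily loop, while REV-ERB and ROR receptors set the rhythm of Arntl. Per1 and Per2 also respond to cAMP signalling and glucocorticoids, and the suprachiasmatic nucleus of the hypothalamus is the master pacemaker of the body.

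The genes lie apart in the genome (GRCm38, GENCODE M21). Per1 is on chromosome 11 from 69095217 to 69109960, Per2 on chromosome 1 from 91415982 to 91459324, and Per3 on chromosome 4 from 151003652 to 151044665. Cry1 is on chromosome 10 from 85131700 to 85185064 and Cry2 on chromosome 2 from 92403646 to 92434043. Arntl is on chromosome 7 from 113207465 to 113314126, Clock on chromosome 5 from 76209868 to 76304792, and Npas2 on chromosome 1 from 39193731 to 39363236.

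The RefSeq table of promoters (GRCm38.p6) held 7 of the 8 genes, with 11 start sites. In the 250 bases before those starts, the letters CACGTG (E-box), CACGTT (a weaker E-box form), TTATGTAA (D-box, bound by DBP, TEF and HLF), AGGTCA (the core of REV-ERB and ROR sites), TGACGTCA (the cAMP response element) and its first letters TGACG were searched on both strands. The stretches below hold E-box, D-box or cAMP-element letters. None of the stretches overlapped an annotated exon. Capitals mark the letters found, and AACGTG is CACGTT read on the other strand.
Per1, first start, chr11:69098771-69098800, plus strand: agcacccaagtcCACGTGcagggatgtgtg
Per1, second start, chr11:69100007-69100036, plus strand: tgagctcagcggcTGACGtcggtttccctg
Per3, chr4:151044807-151044877, minus strand: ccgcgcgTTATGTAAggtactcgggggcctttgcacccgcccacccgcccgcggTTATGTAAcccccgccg
Cry1, chr10:85185107-85185136, minus strand: agaAACGTGaggtgccggtggtCACGTGgg
Cry2, chr2:92434218-92434247, minus strand: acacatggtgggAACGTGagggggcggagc
Over all 32851 promoters, 6.02% held CACGTG, 3.85% held CACGTT, 0.819% held TTATGTAA, 17.8% held TGACG, 14% held AGGTCA and 1.55% held the full cAMP element. Per3 held the D-box letters at 2 places. AGGTCA was found before the first start of Per1 and before a start of Clock. TGACG was also found before the first start of Per1 and the starts of Cry1 and Cry2. Arntl and Npas2 held none of the letters searched. A match is a description of these letters and not a bound site.

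Per kilobase of exon, Cry2 was the most abundant member, at 14.9 ± 1.69 CPM per kb (mean and standard deviation over 17 libraries), and it exceeded Per1 in 17 of 17 libraries. Per1 followed at 8.82 ± 2.9 CPM per kb and exceeded Cry1 in 14. Cry1 at 5.89 ± 0.741 and Per3 at 5.45 ± 1.39 CPM per kb did not differ beyond their spread, since Cry1 was above Per3 in 10 of 17. Per2 was at 4.38 ± 0.912, Arntl at 2.19 ± 0.726 and Npas2 at 1.58 ± 0.303 CPM per kb. Clock was last at 0.203 ± 0.382 CPM per kb, with a standard deviation larger than its mean. Its level and rank are uncertain, since whether the quantification assigned reads to Clock alike in every library was not tested. On the log2 scale, Cry2 varied least within groups, with a standard deviation of 0.14, and only 2.1% of 12721 genes that reached 10 CPM varied less. Cry1 (0.18) and Npas2 (0.23) were also steady. Per1 (0.46) and Arntl (0.48) varied more than 74.2% and 77.2% of genes.

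**Figure D1:**
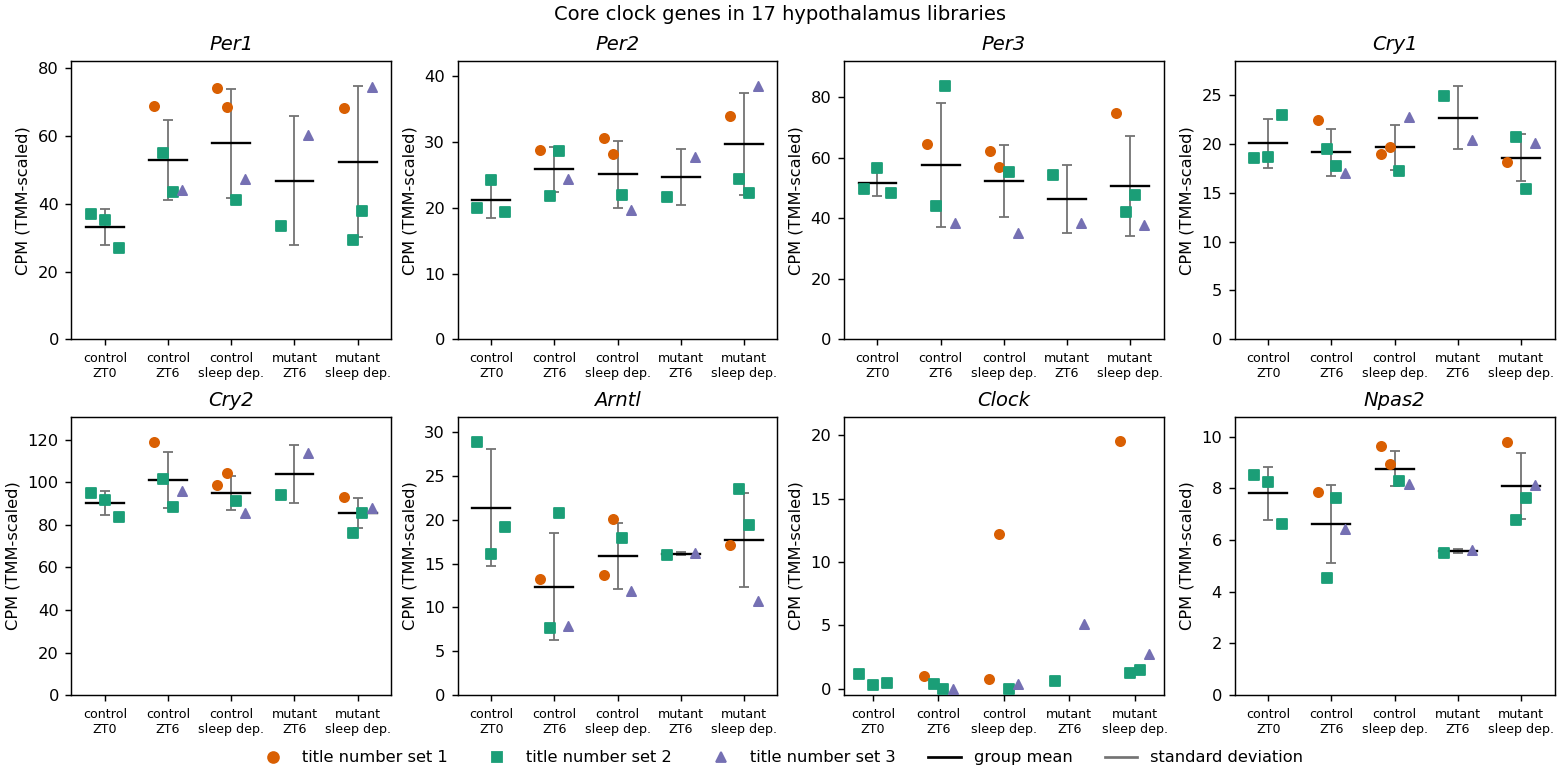
Each panel plots 1 gene as CPM (scaled by TMM) on the y axis for the 17 tested libraries by group on the x axis; points are libraries, the marker shows the set of title numbers, black lines are group means and grey bars are standard deviations (for Clock points only). The group mean of Per1 was lowest and that of Arntl highest in control ZT0, and every sleep-deprived library lay above every ZT6 library of its genotype for Npas2; no member passed the test.

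The first comparison asked how the loop changed over the first light hours in control mice, ZT6 against ZT0. No member passed the threshold, an adjusted p under 0.05 by edgeR's quasi-likelihood test. No gene of 21346 did (0%), while 694 (3.25%) had an unadjusted p under 0.05. DESeq2 called 23 genes and no member. Per1, a light and cAMP responsive repressor, was at 36.89, 35.28 and 26.95 CPM at ZT0 and at 68.62, 54.94, 43.54 and 44.09 CPM at ZT6. All 4 ZT6 libraries lay above all 3 ZT0 libraries, which 1.95% of genes did. The log2 difference was 0.68 ± 0.33 (standard error), with an interval of -0.02 to 1.37 and an unadjusted p of 0.0554 (edgeR, adjusted p = 0.96). Arntl, the activator, was at 28.88, 16.08 and 19.15 CPM at ZT0 and at 13.24, 7.694, 20.74 and 7.871 CPM at ZT6. Its lowest values were 3 of the 4 ZT6 libraries, but replicate 3 at ZT6 overlapped the ZT0 values. The log2 difference of Arntl was -0.79 ± 0.34, with an interval of -1.51 to -0.06 and an unadjusted p of 0.0356 (edgeR, adjusted p = 0.96), the only member with an unadjusted p under 0.05.

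Between ZT0 and ZT6, 5 of the remaining members had smaller differences than Per1 and Arntl. Clock, at 8 to 37 counts at ZT0 and 0 to 49 at ZT6, had a log2 difference of -0.75 ± 1.55, with an interval of -4.04 to 2.54. Per2, the second repressor, was at 19.32 to 24.18 CPM at ZT0 and 21.79 to 28.75 CPM at ZT6, a log2 difference of 0.29 ± 0.22. Per3 had a difference of 0.16 ± 0.29, Cry2 of 0.17 ± 0.14, Cry1 of -0.07 ± 0.17 and Npas2 of -0.24 ± 0.22. The intervals of these 5 included 0, and the widest, that of Per3, ran from -0.45 to 0.77. The median log2 difference of the 8 members was 0.05, against 0.09 over all genes tested. The log2 ratio of Per1 to Arntl was 0.35, 1.13 and 0.49 at ZT0 and 2.37, 2.83, 1.07 and 2.48 at ZT6. All ZT6 libraries but replicate 3 exceeded all ZT0 libraries in that ratio.

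Other values moved with this comparison. All 3 ZT0 libraries have title numbers from 5 to 18, and within that set Per1 differed by 0.58 and Arntl by -0.71 between ZT6 and ZT0. With the set as a covariate the differences were 0.35 for Per1 and -0.63 for Arntl. Without the 3 libraries with the highest sums of pituitary markers they were 0.52 for Per1 and -0.82 for Arntl. Those 3 summed to 682.4 to 23060 CPM, and the other tested libraries to at most 27.6 CPM. Without ZT6 replicate 3, Arntl differed by -1.18, and without ZT0 replicate 1 by -0.51. Pituitary markers, of which all 6 of 6 had a positive difference, summed to 1.306 to 682.4 CPM at ZT6 and 1.455 to 2.254 CPM at ZT0. The suprachiasmatic nucleus list summed to 241 to 719.6 CPM at ZT6 and 198.8 to 313 CPM at ZT0, a sum that is mostly Avp (133.2 to 716.4 and 120.2 to 206.6 CPM), which other hypothalamic nuclei also express. Vip, a peptide of that nucleus, was at 0.6091 to 31.76 CPM at ZT6 and 4.296 to 12.87 CPM at ZT0. The part of either list in the result was not tested.

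**Figure D2:**
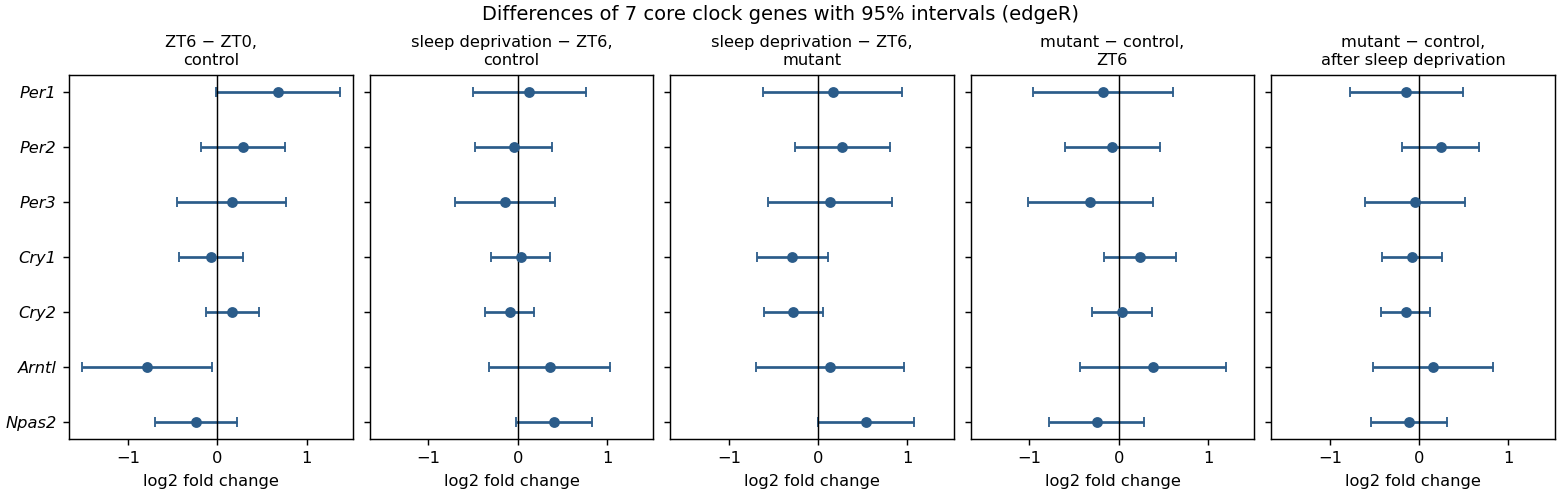
Points are log2 differences of 7 members (rows) in 5 comparisons (panels), from the edgeR fit, and bars are 95% intervals; Clock is left out for its scale. Nearly all bars cross 0, and those of Arntl in ZT6 against ZT0 and of Npas2 after sleep deprivation in mutants do not.

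Sleep deprivation was compared with undisturbed ZT6 in each genotype. No member was called (0 of 8) and no gene of 21346 was (0%) in either genotype, with 1318 (6.17%) and 461 (2.16%) at an unadjusted p under 0.05 in control and mutant mice. DESeq2 called 18 and 17 genes, none of them a member, and of the members 0 in controls and 1 in mutants had an unadjusted p under 0.05 by edgeR. Npas2, the CLOCK paralog that is prominent in forebrain, had the largest difference of the members other than Clock in both genotypes. In control mice it was at 7.837, 4.544, 7.618 and 6.408 CPM at ZT6 and 9.651, 8.945, 8.278 and 8.17 CPM after sleep deprivation. The deprived libraries were all above the ZT6 ones, as in 0.829% of genes, and the log2 difference was 0.41 ± 0.20 (edgeR, unadjusted p = 0.0605, adjusted p = 0.824). In mutant mice Npas2 was at 5.513 and 5.625 CPM at ZT6 and at 9.786, 6.763, 7.637 and 8.133 CPM after deprivation. These did not overlap either, as in 4.6% of genes, and the log2 difference was 0.54 ± 0.25 (edgeR, unadjusted p = 0.0487, adjusted p = 1).

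Averaged over both genotypes, a contrast added after the data were seen, Npas2 differed by 0.47 ± 0.16 (edgeR, unadjusted p = 0.00996, adjusted p = 1; 1 of 21346 genes, 0.00468%, was called and 4.87% had an unadjusted p under 0.05). With the set of title numbers in the fit it differed by 0.40 ± 0.14 (edgeR, adjusted p = 0.711), where 4 genes (0.0187%) were called and 6.12% had an unadjusted p under 0.05. Within each set the difference was positive: 0.24, 0.49 and 0.35 in control mice, and 0.38 and 0.53 in mutant mice. Each of these values has 1 library on at least 1 side. A constant sign within sets was not particular to Npas2. In the same order, Cry2 differed by -0.23, -0.06, -0.16, -0.22 and -0.37, and Per3 by -0.12, -0.14, -0.13, -0.28 and -0.02. Removal of any 1 library left the Npas2 difference between 0.27 and 0.50 in control mice and between 0.44 and 0.61 in mutant mice. Cry2, the most abundant repressor, was lower after deprivation in all 4 mutant libraries, at 92.85, 76.17, 85.71 and 87.95 CPM against 94.22 and 113.6 CPM, as in 5.08% of genes. The log2 difference of Cry2 was -0.28 ± 0.16 in mutants (edgeR, unadjusted p = 0.0948) and -0.09 ± 0.13 in controls. Its mean difference over genotypes was -0.18 ± 0.10 (edgeR, unadjusted p = 0.0886, adjusted p = 1). With the set in the fit it was -0.24 ± 0.08 (edgeR, unadjusted p = 0.00866, adjusted p = 0.677).

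Per1 and Per2 are the members often read after sleep loss, and here neither was called. Per1 was at 74.12, 68.52, 41.14 and 47.26 CPM in deprived controls, which overlapped their ZT6 values. The log2 difference was 0.13 ± 0.30, with an interval of -0.50 to 0.76. Per2 was at 30.59, 28.14, 21.95 and 19.72 CPM in deprived controls, a difference of -0.04 ± 0.20 with an interval of -0.47 to 0.39. In mutants, Per1 differed by 0.16 ± 0.37 and Per2 by 0.27 ± 0.25. Within sets of title numbers, Per1 differed by 0.05, -0.25 and 0.10 in control mice. Per3 differed by -0.14 ± 0.27 and Cry1 by 0.03 ± 0.16 in controls, and by 0.13 ± 0.33 and -0.29 ± 0.19 in mutants. Arntl differed by 0.36 ± 0.32 in controls and 0.13 ± 0.39 in mutants. The median over the 8 members was 0.08 in controls, against -0.02 over all genes, and 0.15 in mutants, against -0.01 over all genes.

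Against ZT0, deprived control mice differed in Per1 by 0.81 ± 0.33 (edgeR, unadjusted p = 0.0261, adjusted p = 0.644), and all 4 libraries were above all 3 at ZT0, as in 9.12% of genes. No gene was called (0%), 1561 (7.31%) had an unadjusted p under 0.05, of the members only Per1, and DESeq2 called 33 genes and no member. With the set of title numbers in the fit the Per1 difference was 0.23, and within the set of 5 to 18, which holds 1 deprived library, it was 0.33. Arntl differed by -0.43 ± 0.34, and the differences of the other members but Clock were under 0.25 in size. This comparison shares its ZT0 and deprived libraries with the others, so its values are not separate evidence.

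Genotype was compared at ZT6 and after sleep deprivation, to see whether loss of Snord116 moved the loop. No member and no gene was called in either (0%), with 566 (2.65%) and 631 (2.96%) of genes and 0 of 8 members at an unadjusted p under 0.05 by edgeR. DESeq2 called 15 and 1 genes, none of them a member. At ZT6, where only 2 mutant libraries could be used, Per1 was at 33.34 and 60.16 CPM, Cry1 at 24.91 and 20.41 CPM and Arntl at 16.03 and 16.27 CPM. The log2 differences from control were -0.18 ± 0.37 for Per1, 0.24 ± 0.19 for Cry1 and 0.38 ± 0.39 for Arntl. Per3 differed by -0.32 ± 0.33, Npas2 by -0.25 ± 0.25, Per2 by -0.07 ± 0.25 and Cry2 by 0.04 ± 0.16. After deprivation Per1 was at 68.05, 29.2, 37.78 and 74.26 CPM in mutants, and the difference from control was -0.14 ± 0.30. Per2 differed by 0.24 ± 0.20, Cry2 by -0.15 ± 0.13, Npas2 by -0.12 ± 0.20, Per3 by -0.05 ± 0.27, Cry1 by -0.08 ± 0.16 and Arntl by 0.16 ± 0.32 there. Clock had the largest differences, 2.86 ± 1.64 at ZT6 (edgeR, unadjusted p = 0.101, adjusted p = 0.999) and 0.89 ± 1.34 after deprivation (edgeR, unadjusted p = 0.514, adjusted p = 0.999). Within each set of title numbers the mean of Clock was higher in mutants, each time with 1 library on at least 1 side. How many of all genes keep 1 sign across these sets was not counted. At ZT6 Clock had 21 counts in the mutant library against 7 and 0 in controls in the second set. In the third set it had 134 against 0. After deprivation it had 740 against 30 and 422 in the first set, 38 and 36 against 0 in the second, and 49 against 8 in the third. Without mutant ZT6 replicate 4 the difference at ZT6 was 0.75, and without mutant sleep deprivation replicate 1 that after deprivation was -0.86. The 8 members overlapped in both comparisons, while 6.06% of all genes at ZT6 and 3.02% after deprivation did not. The interaction of genotype with sleep deprivation was -0.32 ± 0.25 for Cry1 and 0.31 ± 0.32 for Per2, the largest in size besides Clock, and no gene was called by edgeR (0%, with 2.48% of genes and no member at an unadjusted p under 0.05; DESeq2 called 8 genes and no member). The intervals are wide. That of Per1 after deprivation ran from -0.78 to 0.49, which does not show that the genotypes have the same level.

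Per1 and Clock were among many genes that differed by the number in the sample title, which the labels do not explain. Libraries fall into sets of title numbers 1 to 4, 5 to 18 and 43 to 46, and the sets were compared with group in the fit, a comparison added after the data were seen. Between numbers 1 to 4 and 5 to 18, 18.3% of all genes were called and 10.9% were called higher, and 2 of the 8 members, Per1 and Clock, were called higher. Per1 was at 68.05 to 74.12 CPM in the first set, 26.95 to 54.94 CPM in the second and 44.09 to 74.26 CPM in the third. The log2 difference of Per1 between the first set and the second was 0.82 ± 0.19 (edgeR, adjusted p = 0.0107). How many of all genes have ranges that separate these sets was not counted. Per2 (0.44 ± 0.15, edgeR, adjusted p = 0.0642) and Cry2 (0.26 ± 0.09, edgeR, adjusted p = 0.0661) did not pass. Clock differed by 4.52 ± 0.99 (edgeR, adjusted p = 0.00789), on the uneven counts given in the account of Clock. Dbp and Nr1d1, an output factor and the REV-ERBα gene, were also higher there, by 0.84 ± 0.18 (edgeR, adjusted p = 0.00688) and 0.88 ± 0.13 (edgeR, adjusted p = 0.00144). Between the third set and the second, where 22.4% of genes were called and 9.73% were called lower, Per3 was 0.52 lower (edgeR, adjusted p = 0.0363). Between the first set and the third, 1814 of 21346 genes were called higher and 1910 lower. Of the members only Per3 was called there, 0.81 ± 0.19 higher in the first set (edgeR, adjusted p = 0.00855). Per1 did not pass there, at 0.29 ± 0.21 (edgeR, adjusted p = 0.386). The suprachiasmatic list differed between sets too. In the first set against the second, 3 of its 10 genes were called lower, Vip (-3.38), Nms (-1.77) and Prok2 (-1.57), and 1 was called higher. Of 6 pituitary markers, 4 were called higher in the first set, by larger differences: Prl (14.66), Gh (13.86), Lhb (13.4) and Cga (6.64). Libraries of the first set were uneven in these markers. They summed to 3.185 and 19.38 CPM in control sleep deprivation replicates 1 and 2. The sum was 682.4 CPM in control ZT6 replicate 1 and 23060 CPM in mutant sleep deprivation replicate 1. In the second set it reached 10.12 CPM, in control ZT6 replicate 2. The part of either list in the Per1 difference was not tested. Per3 was at 35.15 to 38.52 CPM in the third set and 42.02 to 83.5 CPM in the second.

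**Figure D3:**
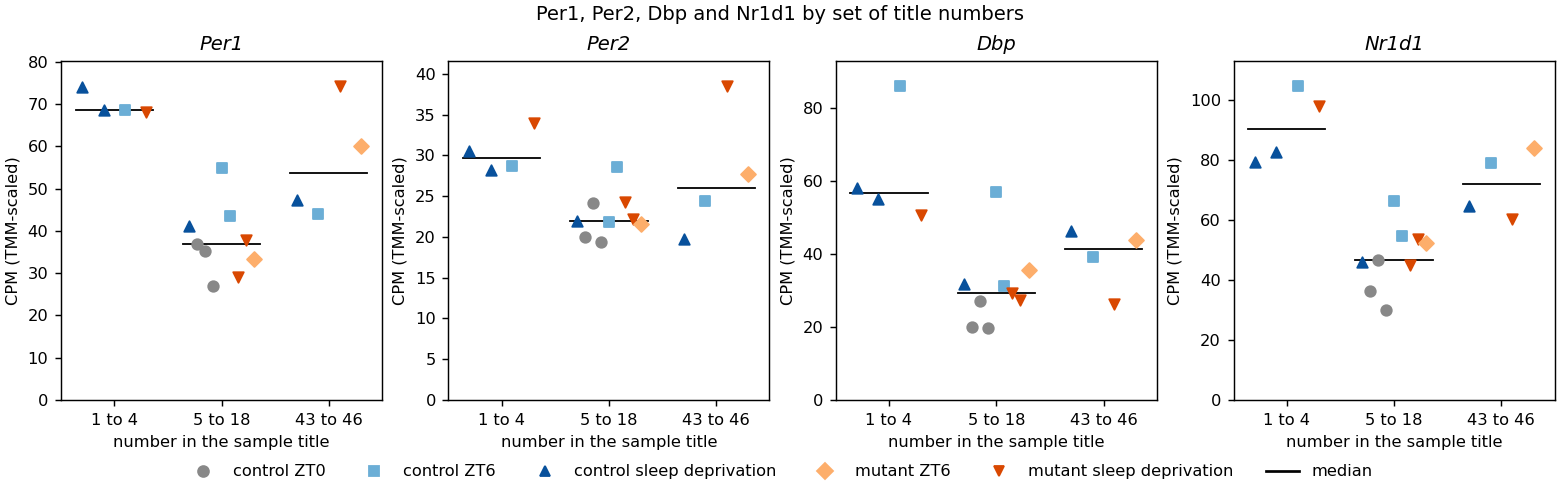
CPM (scaled by TMM) of Per1, Per2, Dbp and Nr1d1 on the y axis against the set of numbers in the sample title on the x axis; points are libraries, colour and shape give the group, and black lines are medians. Per1 was at 68.05 to 74.12 CPM in the set numbered 1 to 4 and at 26.95 to 54.94 CPM in the set numbered 5 to 18.

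Clock counts stood apart from those of the other members, of which the lowest single value was 88 counts. Control libraries held 37, 8 and 16 Clock counts in the ZT0 group and 49, 7, 0 and 0 in the ZT6 group. Deprived controls held 30, 422, 0 and 8. In mutants they were 21 and 134 at ZT6 and 740, 38, 36 and 49 after deprivation. In each deprived group 1 library carried most of the counts. Clock was at 0 in 3 libraries, where the limit of 3 counts is 0.0639 to 0.205 CPM over the libraries tested (counting error only). It had a within-group standard deviation larger than that of 97.5% of 12721 genes, and 158 of those (1.24%) were at 0 in 3 or more libraries. Its genomic neighbours Tmem165 and Srd5a3 were at 21.3 to 40.3 and 11.4 to 26.7 CPM. Differences of Clock, 3.11 ± 1.49 for deprivation against ZT6 in controls (edgeR, unadjusted p = 0.0533), rest on control deprived replicate 2; without it the value was at its lowest, 0.11. The cause of the uneven Clock counts was not tested, and its values are uncertain.

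**Figure D4:**
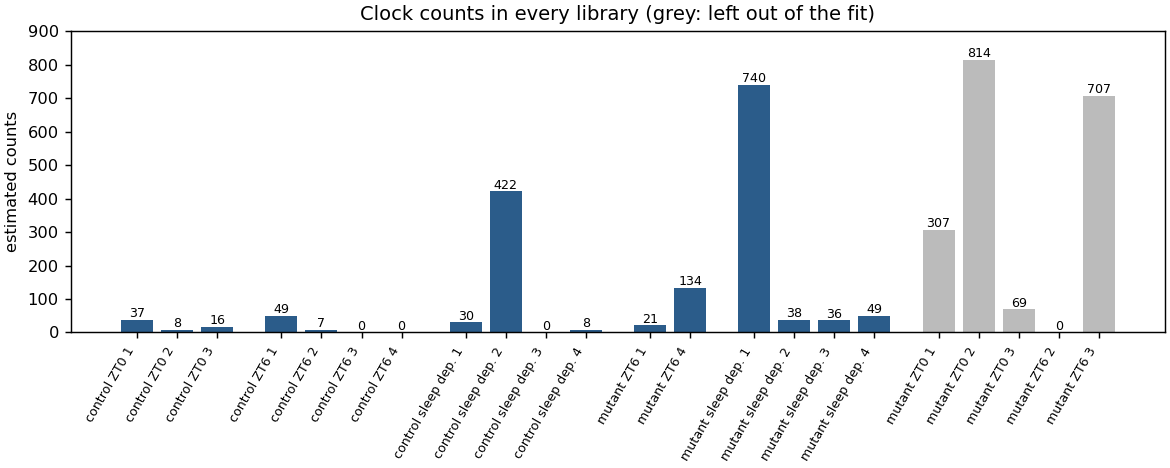
Bars are estimated Clock counts (y axis) in each library (x axis), blue for those tested and grey for the 5 left out, with the count above each bar. Control deprived replicate 2 (422) and mutant deprived replicate 1 (740) exceed every other tested library.

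Other clock genes gave a wider frame. Of 23 genes on 3 lists of the accessory loop (5 REV-ERB and ROR genes, 8 output factors, 10 kinases and ubiquitin ligases of PER and CRY), none was called in any of the 7 comparisons above by edgeR. At an unadjusted p under 0.05 there were 4 of the 23 in ZT6 against ZT0, where 3.25% of all genes were. In deprivation against ZT6 there were 0 in controls (6.17% of all genes) and 1 in mutants (2.16%), and in deprivation against ZT0 there were 2 (7.31%). Between genotypes there were 0 at ZT6 (2.65%) and 1 after deprivation (2.96%), and in the interaction 0 (2.48%). Dbp, the D-box factor, was at 19.77 to 27.18 CPM at ZT0 and 31.12 to 86.08 CPM at ZT6 in controls, a log2 difference of 1.26 ± 0.34 (edgeR, unadjusted p = 0.00186, adjusted p = 0.96). Nr1d1, whose product represses Arntl, was at 29.85 to 46.53 CPM at ZT0 and 54.61 to 104.7 CPM at ZT6, a difference of 1.02 ± 0.30 (edgeR, unadjusted p = 0.00402, adjusted p = 0.96). Neither overlapped between ZT0 and ZT6, as in 1.95% of all genes, and all ZT0 libraries are in the set numbered 5 to 18, in which both genes were lower than in the set numbered 1 to 4. After deprivation Dbp differed by -0.16 ± 0.30 and Nr1d1 by -0.16 ± 0.27 in controls, both with intervals including 0. Fos, an immediate early gene, differed by 0.23 ± 0.29 from ZT0 to ZT6 and by -0.06 ± 0.26 after deprivation. The glucocorticoid list had positive differences after deprivation for 10 of 10 genes in controls, with a median of 0.77. In mutants they were positive for 10 of 10 too, with a median of 0.74. Of all 21346 genes tested, 10117 had a positive difference in controls and 10320 in mutants. Of the glucocorticoid list, 4 in controls and 3 in mutants did not overlap between groups, against 0.829% and 4.6% of all genes. None passed the test by edgeR, and 4 in each genotype had an unadjusted p under 0.05, against 6.17% and 2.16% of all genes. The list was chosen with earlier results of these data known, so these shares describe it and do not test it.

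Over 17 libraries, members' log2 CPM correlated most between Per1 and Per2 (Pearson 0.76, Spearman 0.74; 0.72 in 11 controls and 0.90 in 6 mutants), Per1 and Cry2 (0.62), and least between Per1 and Arntl (-0.41, Spearman -0.48). These libraries share the sets above, so the values describe and do not test. The genes most like each member, among 12861 with a mean of 5 CPM or more, were taken over the 11 control libraries. They were Tob2 (0.96 in controls, 0.73 in mutants), Dbp (0.92, 0.36) and Rcl1 (0.90, 0.02) for Per1, and Mcf2l (0.95, 0.84), Ddx41 (0.91, 0.58) and Arhgap39 (0.90, 0.87) for Per2. For Arntl they were 6030443J06Rik (0.92, -0.37), Lgalsl (0.91, 0.52) and Lsm14a (0.90, 0.71), and for Npas2 Fam149b (0.92, 0.77), Zw10 (0.90, 0.77) and 5830417I10Rik (0.90, 0.70). The nearest gene was 2310022B05Rik for Cry2 (0.96, 0.89), Eif2ak4 for Per3 (0.95, 0.45), Ddx59 for Clock (0.92, 0.56) and 9930104L06Rik for Cry1 (0.78, 0.16). Each was picked as the highest of 12861, so these correlations are high by choice, and nothing is said of shared function.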

How the data were processed

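RNA was measured by sequencing of polyadenylated RNA from mouse hypothalamus. Per the labels' protocols, reads were checked with FastQC, trimmed with Trimmomatic 0.38 and quantified with kallisto 0.44.0 on a mouse index of EnsDb.Mmusculus.v79, with tximport summing transcripts to genes; the authors used DESeq2 with a 2-fold limit. The deposited table holds kallisto estimated counts (expected counts) per gene that the authors made from the trimmed reads, as whole numbers and not normalized. Of 41461 gene lines, 5 repeated a gene ID and were dropped. The 41456 genes were filtered (filterByExpr, minimum 10 counts, minimum total 15), scaled by TMM and tested with edgeR 4.0.16 in 1 fit of 17 libraries in 5 groups, adjusted by Benjamini-Hochberg over all 21346 genes. Intervals are 95% and standard errors come from the F statistic. Exon lengths come from GENCODE M21, of which 41279 gene IDs matched. Alternatives used DESeq2 1.42.0 and limma 3.58.1. The script was tested on simulated data. The members and lists were chosen with earlier results of these data known. The rule for named genes took all 8 members, Dbp, Nr1d1 and Fos. It also took any clock-list genes called between groups and the 3 genes most like each member. For Cry1, Cry2, Per3 and Clock only the nearest gene is given. Snhg14, the neighbours of Clock and single genes of the suprachiasmatic and pituitary lists are named outside this rule.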

Additional observations from a re-analysis of the deposited data

Results flagged for a closer look

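Clock was far from its group in 2 libraries: control sleep deprivation replicate 2 was at 12.22 CPM, and mutant sleep deprivation replicate 1 at 19.52 CPM. Of 24 pairs of member and group with 4 libraries, these 2 stood out, and chance gives about 1 in 20.

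In the 4 libraries with few neural transcripts, left out of the tests, some members were above all 11 control libraries in CPM without TMM scaling. Per1 was at 107.7 CPM in mutant ZT0 replicate 3 and 98.07 CPM in mutant ZT6 replicate 3, against 27.81 to 75.71 CPM in controls. Arntl was at 30.22 CPM in mutant ZT0 replicate 1, against 6.7 to 29.98 CPM. Clock was at 19.82, 25.31 and 22.11 CPM in mutant ZT0 replicates 1, 2 and 3, and 39.78 CPM in mutant ZT6 replicate 3, against 0 to 12.62 CPM in controls. In those 4 libraries Per3 was at 2.145 to 4.068 CPM, Per2 at 3.422 to 14.77 CPM and Cry2 at 30.31 to 47.21 CPM, all below every control library (32.06, 17.98 and 78.24 CPM at the lowest). These libraries hold 7779 to 23030 CPM of meninges and fibroblast markers and 3.451 to 23.37 CPM of neuron markers, and no genotype difference is read from them. How many of all genes lie outside the control range there was not counted, so whether these values are particular to the clock genes is not known.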

How the results depend on the processing

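In the 7 comparisons of time, deprivation and genotype, no member was called under any setting tried. All 1007 values of single members stayed on their side of the threshold. Among these settings, 1 only added a 2-fold limit to the main fit, which called 0 genes, so it could not add a call. The comparison of title-number sets, which did call members, was run in 1 fit only. A change of sign in a value that was never called was not counted as a reversal. The count of all genes called by edgeR was 0 in each of these 7 comparisons, and it moved in these settings. With DESeq2 it was 23 for ZT6 against ZT0 in controls, 18 for deprivation against ZT6 in controls, 33 for deprivation against ZT0, 17 for deprivation in mutants, 15 for mutant against control at ZT6, 1 after deprivation and 8 for the interaction. Without a low-count filter it was 1 for deprivation against ZT6 in controls, and with all 22 libraries 173 for deprivation in mutants. With the set as a covariate it was 3 for mutant against control after deprivation. Without title numbers 43 to 46 it was 1 for deprivation against ZT6 and 1 against ZT0 in controls. Without the 3 libraries with the highest sums of pituitary markers it was 2 and 2 for these, 1 for mutant against control at ZT6 and 1 for the interaction. With only the compared groups it was 2 for deprivation against ZT0, and with limma-voom and sample weights, added after the data were seen, 1 for deprivation against ZT6 and 11 against ZT0 in controls. Leaving out 1 library gave 0 to 1 called gene for ZT6 against ZT0 and for deprivation against ZT6 in controls, 0 to 3 for deprivation in mutants, 0 to 2 for mutant against control at ZT6 and 0 to 2 for the interaction. The cause of these differences was not tested. Where a group is left with 1 library, that library is assumed to vary like the others. No paired analysis was possible because replicates are only numbered in accession order. Where Clock had 0 counts, the limit of 3 counts allows up to 0.205 CPM (counting error only). The part of depth in the Clock counts was not tested.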
